A study of Mus musculus with 2 samples.

Results

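Upper cortical layer bins were followed in 2 brain sections after controlled cortical impact (CCI), a focal brain injury made by driving a piston into the cortex of 1 hemisphere. They were 2477 of the 227556 bins deposited, 1577 of 121967 bins 3 days after CCI and 900 of 105589 bins 28 days after CCI. Bins were squares 16 µm wide, each of which may cover fragments of more than 1 cell. Bins with at least 100 unique molecular identifiers (UMIs, the count of captured molecules) were scored by the share of UMIs of Cux2, Otof and Rasgrf2 in a block of 5 by 5 bins around them. Blocks needed at least 10 UMIs of Slc17a7, the vesicular glutamate transporter of cortical excitatory neurons. Members were the bins at or above the 96th percentile of that score on the side opposite to the injury, so the rule itself fixed their share on that side. Array columns above a limit set for each section were called the opposite side and the others the injured side.

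Each time point was represented by 1 section from 1 male C57Bl6 mouse aged 3 months at the time of injury. The mice were untreated apart from the injury with its surgery, anaesthesia and analgesia. The tissue was perfused, fixed and embedded in paraffin. It was measured with Visium HD, in which probe pairs hybridised to the section are counted on a grid of barcoded squares. No uninjured animal was part of the 2 spatial sections, so the opposite side of the same section was the reference. No test against the spread between animals was possible, and every interval given is a 95% interval that covers counting error only. The sections held 120615873 and 82422389 UMIs. Of their barcodes 84781 were the same, because a barcode names a grid position of the array and not a cell.

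The upper layers of the neocortex lie beneath the cell-poor layer at the brain surface and hold excitatory neurons that project mainly to other cortical areas, within and across the hemispheres. Cux2 is a transcription factor of these neurons, Otof encodes otoferlin, a calcium-binding protein of vesicle release, and Rasgrf2 encodes a guanine nucleotide exchange factor of Ras. When neurons are active, immediate early genes such as Fos are transcribed within minutes, and a later set of secreted and synaptic genes follows.

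The members formed a thin strip below the brain surface. On the opposite side their median distance from the tissue edge was 208 µm at 3 days and 152 µm at 28 days, and on the injured side it was 195 µm and 172 µm. At 3 days 84 members lay on the injured side, 1.60% (exact interval 1.28 to 1.98%) of its 5249 bins past the Slc17a7 criterion, and 1493 lay on the opposite side. In the later section the injured side held 279 members, 2.38% (2.12 to 2.68%) of 11706 bins, and the opposite side held 621. Neighbouring bins share their blocks, so these intervals are nominal. Fewer cells of a type and less RNA per cell cannot be told apart in such bins. Mean depth differed little between the sides, with 1611 UMIs per injured-side member and 1628 per opposite-side member at 3 days, and 1919 and 1906 at 28 days.

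**Figure D1:**
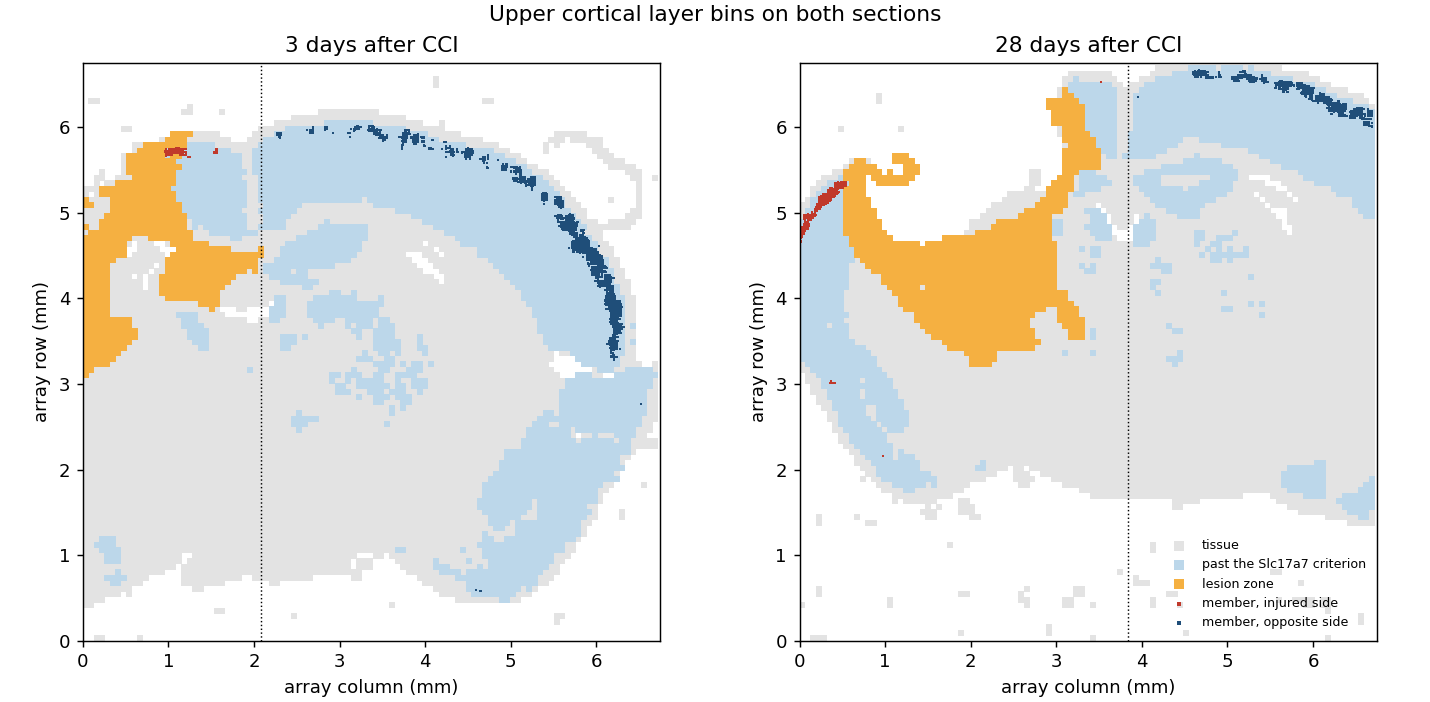
Position of the members on both sections, with array column and row in mm. Grey marks tissue, light blue the tissue past the Slc17a7 criterion, orange the lesion zone, red and dark blue the members of the injured and opposite side, and the dotted line the column limit. At 3 days the 84 injured-side members sit in a short stretch at the lesion, and at 28 days most of the 279 sit at the lateral edge of the array beyond the lesion cavity.

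The sides were captured unequally, and this bears on every comparison that follows. Injured-side members at 3 days lay 0.512 to 1.12 mm from the column limit, and the opposite-side members 0.192 to 4.45 mm with a median of 3.71 mm. Injured-side members at 28 days had a median of 3.57 mm, and the opposite side was captured only to 2.85 mm, with a median of 2.14 mm. A lesion zone was placed where the summed share of 6 phagocyte genes (Cd68, Lyz2, Ctsz, Lgals3, Cd52 and Laptm5) exceeded the 99th percentile seen opposite the injury. At 3 days 68 of the 84 injured-side members lay inside it and the other 16 within 500 µm of it. These 16 held 28358 UMIs, so 3 days ratios without the zone members rest on few UMIs for genes with low counts. At 28 days 13 of 279 lay inside and 244 within 500 µm. Injury and position along the cortex therefore cannot be told apart at 28 days. The limit was set for each section, and distances are given from the limit of the same section. Whether equal distances mean equal positions along the cortex, between sides or sections, was not tested.

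The values that chose the members are given as a description. The score had to reach 0.110% of UMIs at 3 days and 0.0989% at 28 days. The lowest member at 3 days had 0.1103% and the highest bin outside 0.1102%, while at 28 days both stood at 0.09893%. Rasgrf2 carried most of the score, with 1019 UMIs after scaling to a common total (CPM) in injured-side members and 1006 CPM in opposite-side members at 3 days. At 28 days Rasgrf2 stood at 979 and 855 CPM. Cux2 stood at 288 and 238 CPM in the earlier section and at 220 and 235 CPM in the later. Otof stood at 14.8 and 45.3 CPM, from 2 and 110 UMIs, in the earlier section and at 72.9 and 33.0 CPM in the later.

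Genes outside the rule placed the opposite-side strip in the upper layers, and injured-side members were not placed in this way. In injured-side members the further upper-layer genes summed to 1404 CPM at 3 days and 1799 CPM at 28 days. The other opposite-side bins past the Slc17a7 criterion had 1017 and 951 CPM. Layer 4 genes at 28 days summed to 159 CPM in injured-side and 106 CPM in opposite-side members. Of 12 further upper-layer genes, 10 had a higher CPM in opposite-side members than in the other opposite-side bins past the Slc17a7 criterion at 3 days, and 9 at 28 days. Lamp5, a membrane protein of layer 2/3 and of some interneurons, stood at 617 CPM against 214 CPM at 3 days. Calb1, which encodes the calcium buffer calbindin, stood at 428 against 147 CPM. Plcxd2 went against the label, with 22.6 against 51.1 CPM. All 6 layer 5 genes and all 6 layer 6 genes were lower in these members than in the other bins at 3 days, among them Fezf2, which specifies deep-layer projection neurons, at 3.70 against 40.9 CPM. Hs3st4, a heparan sulfate sulfotransferase gene used as a layer 6 marker, stood at 5.76 against 137 CPM.

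The first comparison asked how the strip on the injured side differed from the strip on the opposite side of the same section. Genes with at least 50 UMIs over both sides were measured, and the ratio of injured-side over opposite-side CPM was taken on the log2 scale with a pseudocount of 0.5 UMI. At 3 days 690 of 8145 measured genes (8.47%) were at least 2-fold higher on the injured side and 779 (9.56%) at least 2-fold lower, and with TMM scaling, which aligns the bulk of the genes, these counts were 495 and 1046. At 28 days 60 of 6900 genes (0.87%) were at least 2-fold higher and 108 (1.57%) at least 2-fold lower. The median of all genes was 0.02 at 3 days and -0.0004 at 28 days. The counts of the sections cannot be set against each other, because the injured side had 135365 UMIs at 3 days and 535290 at 28 days, and counting error widens as UMIs fall. TMM scaling lowered each log2 ratio by 0.15 at 3 days and by 0.02 at 28 days. The minimum itself favours genes that differ, because 86 of the 690 higher and 428 of the 779 lower genes at 3 days would have fallen short of 50 UMIs with both sides at the lower side's CPM. At 28 days this held for 30 of the 60 higher and 65 of the 108 lower genes. Such genes are said below to have reached the minimum only through their higher side, and the counts of higher and lower CPM over all listed genes do not use the minimum. Of all measured genes 3831 had a higher and 4314 a lower CPM on the injured side at 3 days, and 3369 and 3531 at 28 days. These counts cover measured genes only, and no matching background was taken without the minimum.

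Immediate early genes stood apart from the bulk in opposite directions in the sections. At 3 days 12 of the 15 listed genes were measured, 7 of them were at least 2-fold higher on the injured side and 0 lower (background 8.47% and 9.56%), and their median log2 ratio was 1.49. Of the 7, Ier2 and Btg2 reached the minimum only through the injured side. Without regard to the minimum, 13 of the 15 genes had a higher CPM on the injured side and 2 a lower one. Summed over the list the injured-side members had 3391 CPM and the opposite-side members 1412 CPM, a log2 ratio of 1.27 (1.12 to 1.41). With the reference restricted to opposite-side members within 2.08 mm of the column limit, the list median was 1.12 over the genes still measured. Between 0.8 and 1.6 mm from the limit the list stood at 3396 CPM in injured-side and 1857 CPM in opposite-side members. Nearer the limit than 0.8 mm these values were 3361 and 1303 CPM. At 28 days 9 genes were measured, 0 were 2-fold higher and 7 were at least 2-fold lower (background 0.87% and 1.57%), with a median of -1.91. Of the 7, 5 (Fos, Egr4, Arc, Npas4 and Dusp1) reached the minimum only through the opposite side, whereas Nr4a1 and Egr1 did not depend on it. Without regard to the minimum, all 15 listed genes had a lower CPM on the injured side. The sum was 469 CPM in injured-side and 1516 CPM in opposite-side members, a log2 ratio of -1.69 (-1.89 to -1.50). The opposite sides thus had similar sums, and the injured sides lay above them at 3 days and below them at 28 days.

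Transcription factors of this list showed the pattern gene by gene, and which cells in the bins held these transcripts was not tested. Npas4 (ENSMUSG00000045903), an activity-dependent factor largely restricted to neurons, had 428 CPM in injured-side and 34.2 CPM in opposite-side members at 3 days, for a log2 ratio of 3.65 with an interval of 3.14 to 4.15. It had 13.1 and 52.4 CPM at 28 days (-1.91, -3.38 to -0.87). Npas4 was thus the highest immediate early gene by ratio at 3 days. Fos (ENSMUSG00000021250), a subunit of the AP-1 factor, had 362 against 49.0 CPM at 3 days (2.90, 2.38 to 3.38) and 11.2 against 60.0 CPM at 28 days (-2.31, -3.91 to -1.23). Nr4a1 (ENSMUSG00000023034), an orphan nuclear receptor, had 303 against 174 CPM at 3 days (0.82, 0.30 to 1.27) and 39.2 against 230 CPM at 28 days (-2.52, -3.27 to -1.91). Egr1, a zinc finger factor, had 510 against 366 CPM at 3 days (0.49, 0.10 to 0.83) and 72.9 against 416 CPM at 28 days (-2.50, -3.02 to -2.04). Against opposite-side members within 2.08 mm of the column limit, the 3 days ratio of Egr1 was 0.09, and that of Npas4 was 3.21.

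Synaptic and regulatory members of the list behaved alike in part. Arc, whose product acts at synapses on glutamate receptor traffic, had 502 against 149 CPM at 3 days (1.76, 1.36 to 2.13). At 28 days Arc had 26.2 and 117 CPM (-2.11, -3.07 to -1.36). Egr4 had 133 against 53.5 CPM at 3 days (1.35, 0.51 to 2.03) and a ratio of -1.61 (-2.97 to -0.61) at 28 days. Junb, another AP-1 subunit, had ratios of 1.63 (1.05 to 2.13) and -0.81 (-1.51 to -0.19), and Egr3 of 0.68 (0.29 to 1.02) and -0.83 (-1.17 to -0.51). Dusp1, a phosphatase of MAP kinases, did not follow the list at 3 days, with 59.1 against 72.4 CPM from 8 injured-side UMIs (-0.21, -1.53 to 0.72), but without the members inside the lesion zone its ratio was 1.42. Ier2 and Btg2 had ratios of 2.37 and 2.21 at 3 days from 12 and 11 injured-side UMIs and were below the minimum at 28 days.

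Promoters are among the sequences through which activity reaches immediate early genes, so those of 3 genes of this list are shown. Each is the 300 bases around the annotated start from RefSeq (build GRCm38.p6), printed 5′ to 3′ on the strand of the gene. Capitals mark TGACG on either strand, the core of the cAMP response element bound by CREB, which reads CGTCA on the opposite strand. Fos lies at chr12:85473640-85473939 on the plus strand, Nr4a1 at chr15:101266596-101266895 on the plus strand and Npas4 at chr19:4989922-4990221 on the minus strand.
Fos: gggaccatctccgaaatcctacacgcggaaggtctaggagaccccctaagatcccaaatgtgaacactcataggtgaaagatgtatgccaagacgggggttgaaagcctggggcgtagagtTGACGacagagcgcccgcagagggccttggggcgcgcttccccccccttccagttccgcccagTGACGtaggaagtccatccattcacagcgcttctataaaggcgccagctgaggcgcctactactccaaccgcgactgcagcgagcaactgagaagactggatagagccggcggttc
Nr4a1: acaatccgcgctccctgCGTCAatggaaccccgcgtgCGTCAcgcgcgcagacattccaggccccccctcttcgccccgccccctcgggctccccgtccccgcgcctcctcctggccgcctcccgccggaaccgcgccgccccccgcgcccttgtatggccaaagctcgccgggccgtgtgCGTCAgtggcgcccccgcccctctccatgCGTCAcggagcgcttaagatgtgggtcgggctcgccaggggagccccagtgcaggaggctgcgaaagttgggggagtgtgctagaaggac
Npas4: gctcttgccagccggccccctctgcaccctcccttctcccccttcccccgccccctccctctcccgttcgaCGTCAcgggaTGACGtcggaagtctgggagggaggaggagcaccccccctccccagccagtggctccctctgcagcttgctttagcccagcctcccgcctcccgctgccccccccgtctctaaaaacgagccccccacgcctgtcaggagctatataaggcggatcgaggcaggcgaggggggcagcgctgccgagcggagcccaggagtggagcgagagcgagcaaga
The core occurs 2 times in the window of Fos, 4 times in that of Nr4a1 and 2 times in that of Npas4. A promoter was given for 11 of the 15 listed genes, and 10 of the 11 (90.9%) held the core, against 23.0% of all 27025 genes with a promoter in the table. The full palindrome TGACGTCA, which contains the core, was found in 2 of the 11 (Dusp1 and Btg2) and in 2.03% of all genes. The CArG box, bound by serum response factor, was found in 1 of the 11 (Egr2) and in 1.81% of all genes. Sequences outside the 300 bases were not searched. The core was searched after the longer motif had been counted, and a match is a description of letters, not of a bound site.

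**Figure D2:**
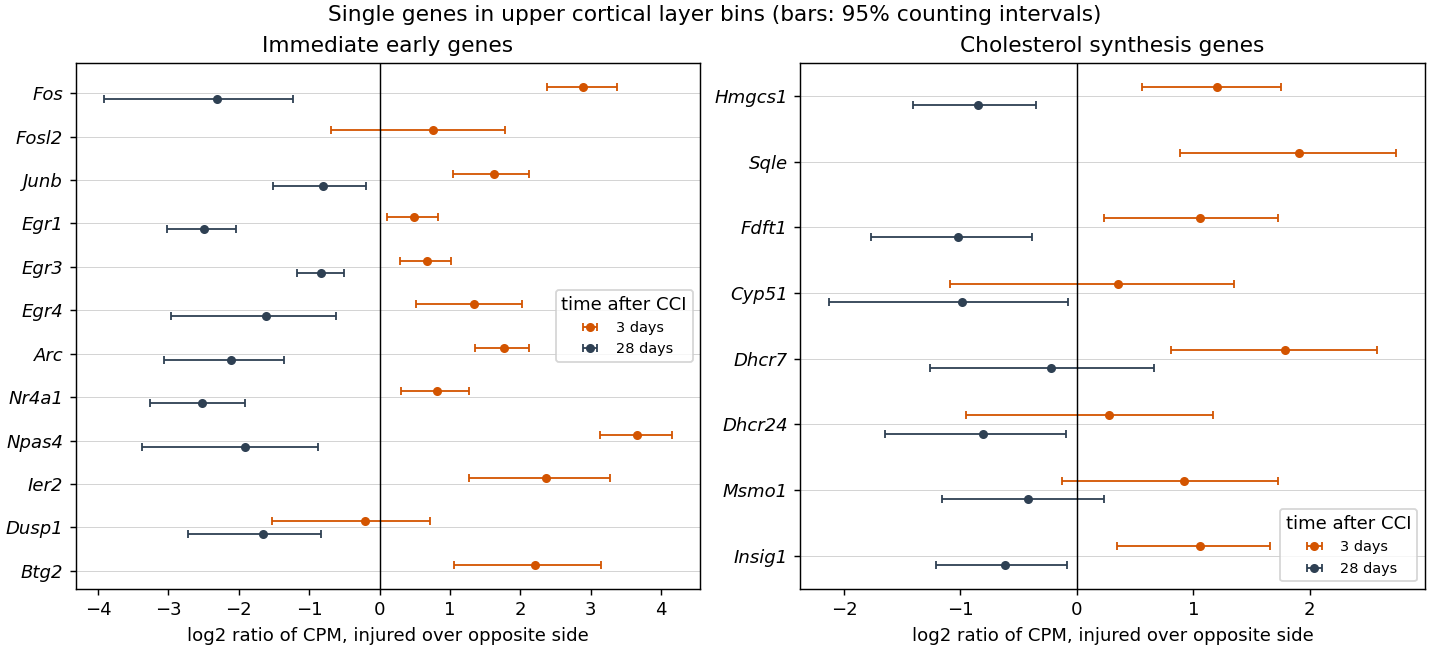
Log2 ratio of CPM, injured over opposite side, of each measured immediate early gene (left) and cholesterol synthesis gene (right) at 3 days (orange) and 28 days (dark blue), with 95% counting intervals as bars. Of the immediate early genes, Dusp1 alone has a ratio below 0 at 3 days, and the 9 genes measured at 28 days all lie below 0, as do the 7 cholesterol synthesis genes measured then.

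Along the strip the immediate early genes were also compared per square of 32 by 32 bins with at least 50 members. The single injured-side square at 3 days had 3559 CPM, and the 10 opposite-side squares ranged from 1063 to 2072 CPM with no overlap. The 2 injured-side squares at 28 days had 375 and 503 CPM, and the 4 opposite-side squares 1448 to 1681 CPM. Most 28 days injured-side members lay 3.2 to 4.0 mm from the limit of their section. At these distances from its own limit the opposite side of the 3 days section had 1501 CPM. The squares of a side come from 1 animal and are not replicates. Inside the lesion zone at 3 days the 68 members had 3280 CPM and the 16 outside it 3808 CPM. At 28 days the members inside the zone had 509 CPM, those within 500 µm of it 452 CPM and those at 500 to 1000 µm 439 CPM. The 8 members farther than 1000 µm had 1083 CPM from 15 UMIs.

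**Figure D3:**
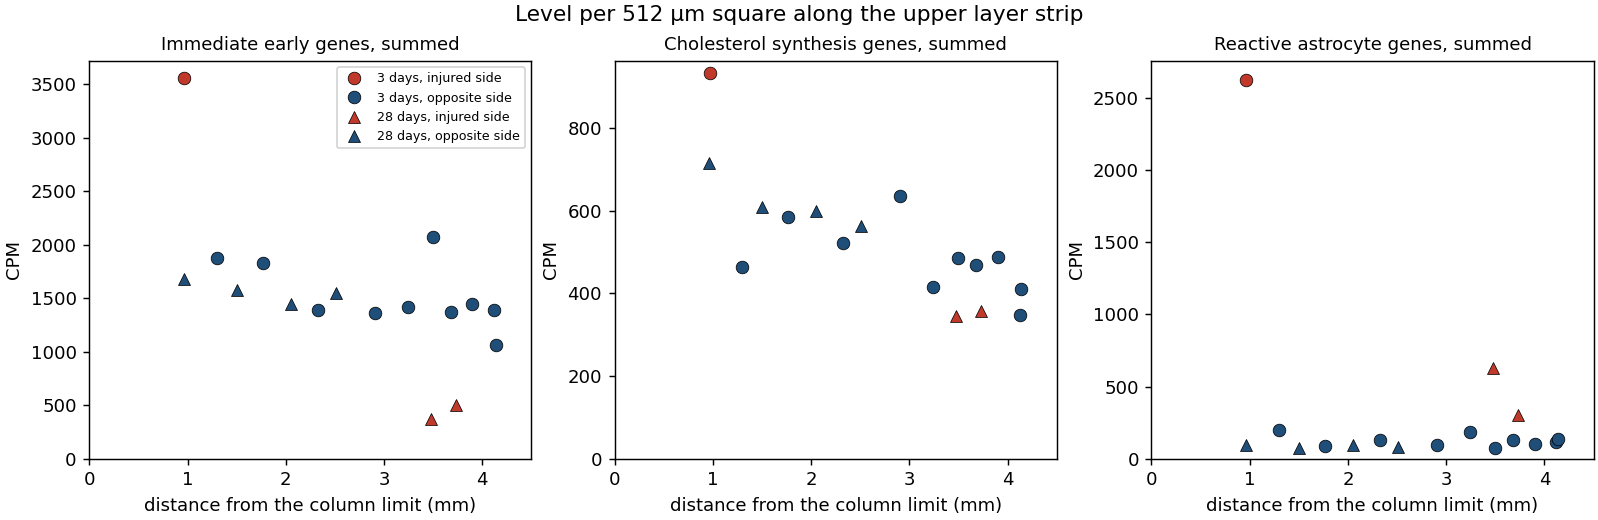
Summed CPM of 3 gene lists in each square of 32 by 32 bins of the strip with at least 50 members, against the mean distance of its members from the column limit in mm. Circles are squares at 3 days and triangles squares at 28 days, red on the injured side and blue on the opposite side. Immediate early genes on the injured side lie above all opposite-side squares of their own section at 3 days and below them at 28 days, as do cholesterol synthesis genes, whose 28 days injured-side squares also lie near the lowest opposite-side square of the 3 days section.

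Other bins past the Slc17a7 criterion were compared in the same way to show where the strip differed. Layer 6 bins, chosen by the same rule with layer 6 genes, had a summed log2 ratio of immediate early genes of 0.54 (0.41 to 0.67) at 3 days and -1.40 (-1.87 to -0.98) at 28 days. All bins past the Slc17a7 criterion outside the strip, which were not limited to the cortex, had 0.67 (0.64 to 0.69) and -0.58 (-0.61 to -0.54). The interval of the upper layer strip (1.12 to 1.41) lay above both at 3 days. It covers counting error only, and the compared bins were not matched by distance to the lesion zone. The references also differed, as opposite-side layer 6 bins at 3 days had 1172 CPM of reactive astrocyte genes and the opposite-side strip 130 CPM. The injured-side layer 6 bins at 3 days also had less of the layer 6 genes outside their rule (165 against 333 CPM). At 28 days the interval of the strip overlapped that of layer 6. The layer 6 bins of the injured side then also had less of the 12 glutamatergic neuron genes (2634 against 6916 CPM, -1.39). They had more of the thalamic neuron genes (679 against 299 CPM). In the strip the glutamatergic sum was 8976 against 8814 CPM (0.03).

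Later activity-dependent genes differed mainly at 28 days. Of 12 measured, 4 were at least 2-fold lower and 0 higher (background 1.57% and 0.87%), with a median of -0.90. Of the 4, Inhba and Nptx2 reached the minimum only through the opposite side, and over all 14 listed genes 13 had a lower CPM on the injured side. Inhba, a subunit of activin A, had 5.60 against 46.5 CPM from 3 injured-side UMIs (-2.84, -5.37 to -1.43). Penk, the enkephalin precursor, had 43.0 against 193 CPM (-2.14, -2.86 to -1.55). Nptx2, a pentraxin of excitatory synapses onto interneurons, had 16.8 against 61.7 CPM (-1.81, -3.06 to -0.87), and Bdnf, a neurotrophin, 43.0 against 116 CPM (-1.40, -2.14 to -0.79). Nptx1 went the other way at 28 days, with 368 against 226 CPM (0.70, 0.43 to 0.97). Penk also differed along the opposite side at 3 days, where the 3 most lateral squares, at 3.90 to 4.14 mm, had 40.3 to 71.9 CPM and the other 7 had 140 to 324 CPM. The 28 days injured-side squares, at 3.48 and 3.73 mm, had 34.5 and 33.1 CPM, and the 3 days opposite-side squares nearest to these distances, at 3.50 and 3.68 mm, had 209 and 178 CPM.

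At 3 days the same list had no common direction. Its median over 13 genes was 0.13, which became -0.02 with TMM scaling, with 3 genes at least 2-fold higher and 1 lower (background 8.47% and 9.56%). Nptx2 had 222 against 66.2 CPM (1.76, 1.13 to 2.31), Rgs2, a regulator of G protein signalling, 244 against 68.7 CPM (1.84, 1.24 to 2.37) and Nptx1 635 against 302 CPM (1.08, 0.73 to 1.40). Bdnf was the lower gene, with 51.7 against 120 CPM from 7 injured-side UMIs (-1.11, -2.54 to -0.15). Without the members inside the lesion zone the ratio of Nptx2 was 0.41.

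Cholesterol synthesis genes also differed in opposite directions. At 3 days 5 of 8 measured genes were at least 2-fold higher and 0 lower (background 8.47% and 9.56%), with a median of 1.06, and the sum was 997 CPM against 474 CPM. At 28 days 1 of 7 (Fdft1, squalene synthase, at -1.02) was at least 2-fold lower and 0 higher (background 1.57% and 0.87%), with a median of -0.81, and the sum was 353 against 606 CPM. Without regard to the minimum, 10 of the 11 listed genes had a higher CPM on the injured side at 3 days and all 11 a lower one at 28 days. Hmgcs1 (ENSMUSG00000093930), an early synthase of the pathway, had 207 against 91.3 CPM at 3 days (1.20, 0.56 to 1.75) and 72.9 against 133 CPM at 28 days (-0.85, -1.41 to -0.35). Sqle, squalene epoxidase, had 96.04 against 26.3 CPM at 3 days (1.91, 0.88 to 2.74). Without the 68 members inside the lesion zone the ratio of Hmgcs1 was 1.32, with a list median of 0.76. That of Sqle was -0.59, which rests on the pseudocount alone and so gives no direction.

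The injured-side square at 3 days had 933 CPM of this list, and the 10 opposite-side squares ranged from 347 to 635 CPM. The 2 injured-side squares at 28 days had 345 and 357 CPM, below the 564 to 716 CPM of the 4 opposite-side squares of the same section and near the lowest of the 3 days section. The promoter of Hmgcs1, at chr13:119690101-119690400 on the plus strand, is shown because it alone among the 7 listed genes with a promoter entry held the sterol regulatory element, in capitals.
Hmgcs1: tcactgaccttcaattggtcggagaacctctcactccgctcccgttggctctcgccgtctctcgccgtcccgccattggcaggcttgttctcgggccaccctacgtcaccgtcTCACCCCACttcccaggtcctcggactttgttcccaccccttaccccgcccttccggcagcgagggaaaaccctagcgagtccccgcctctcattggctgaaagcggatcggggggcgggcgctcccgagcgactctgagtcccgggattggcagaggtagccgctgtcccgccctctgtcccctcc
The element was searched as TCACNCCAC on both strands and was found in 1.44% of all genes with a promoter.

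Glial genes moved with the injured side in the same bins. Of 12 reactive astrocyte genes 3 were measured at 3 days and 2 at 28 days, but Serpina3n at 3 days and Vim at 28 days reached the minimum only through the injured side, so no count of these is given. Without regard to the minimum, all 12 genes had a higher CPM on the injured side at 3 days, and at 28 days 8 had a higher and 2 a lower one. The sum was 2305 CPM against 130 CPM at 3 days and 447 against 92.1 CPM at 28 days. Gfap, the intermediate filament of astrocytes, had 850 against 66.2 CPM at 3 days (3.68, 3.32 to 4.04) and 293 against 38.0 CPM at 28 days (2.94, 2.46 to 3.46). Vim, another intermediate filament, had 665 against 21.4 CPM (4.95, 4.45 to 5.48) and 56.0 against 22.0 CPM (1.35, 0.54 to 2.17). Serpina3n, a secreted protease inhibitor, had 222 against 18.5 CPM at 3 days (3.59, 2.86 to 4.28). At 28 days the 2 injured-side squares had 301 and 627 CPM of this list, and the 4 opposite-side squares 74.3 to 94.7 CPM.

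Genes of resting astrocytes had lower levels on the injured side at 3 days and slightly higher ones at 28 days. Over 11 genes the median was -0.50 at 3 days and 0.23 at 28 days, with sums of 2416 against 4588 CPM and 6062 against 4905 CPM (0.31 at 28 days). Aldoc, an aldolase of astrocytes, had 547 against 1731 CPM at 3 days (-1.65, -2.02 to -1.33) and 2182 against 1609 CPM at 28 days (0.44, 0.33 to 0.55). At 3 days 3 of the 11 had a higher CPM on the injured side and 8 a lower one. Of the 11, 1 was at least 2-fold higher and 2 at least 2-fold lower (background 8.47% and 9.56%). The higher gene was the water channel Aqp4, with 155 against 65.8 CPM (1.27, 0.51 to 1.90). Without the members inside the lesion zone the list median at 3 days was -0.02.

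Interferon-stimulated genes were high on the injured side at 3 days. All 10 listed genes had a higher CPM there, and the sum was 1263 CPM against 55.1 CPM. Ifit3 and Ifi27 were measured, and both reached the minimum only through the injured side. Ifit3, an interferon-induced antiviral protein, had 207 against 11.9 CPM (4.12, 3.31 to 4.92), and Ifi27 had 81.3 against 19.3 CPM (2.12, 0.97 to 3.04). The list stood at 1392 CPM in the members inside the lesion zone and at 776 CPM in the 16 outside it. In the opposite-side strip at 3 days a single square stood out, with 324 CPM, while the other 9 had 0 to 72.6 CPM. At 28 days the sum was 97.1 against 41.4 CPM, and no gene of the list reached the minimum of 50 UMIs.

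Microglial genes had a higher sum on the injured side at both time points, and phagocyte activation genes at 28 days. The homeostatic microglia list had 554 against 311 CPM at 3 days and 336 against 170 CPM at 28 days. The injured-side square at 3 days had 466 CPM, within the 137 to 496 CPM of the opposite-side squares. At 28 days the injured-side squares had 228 and 498 CPM, above the 88.8 to 210 CPM of the opposite side. At 3 days the list stood at 645 CPM in the members inside the lesion zone, itself placed by phagocyte genes. It stood at 212 CPM from 6 UMIs in the 16 outside the zone, below the opposite side. The phagocyte activation list had 2091 against 2272 CPM and 3854 against 2260 CPM, with 4 of its 8 measured genes at least 2-fold higher and 1 lower at 3 days (background 8.47% and 9.56%) and 3 of 8 higher and 0 lower at 28 days (background 0.87% and 1.57%). C1qa, a chain of complement C1q, had 214 against 90.9 CPM (1.26, 0.62 to 1.80) and 110 against 43.1 CPM (1.35, 0.79 to 1.93), and its 3 days ratio was 0.44 without the members inside the zone. The lipid carrier Apoe differed in direction, with 901 against 1737 CPM at 3 days (-0.94, -1.22 to -0.69) and 3155 against 1724 CPM at 28 days (0.87, 0.78 to 0.97). Lpl, lipoprotein lipase, had 7.39 against 56.8 CPM from 1 injured-side UMI at 3 days (-2.36, -8.26 to -0.44), when it reached the minimum only through the opposite side, and 93.4 against 39.7 CPM at 28 days (1.23, 0.63 to 1.84). Vascular genes summed to 635 against 265 CPM at 3 days and 277 against 269 CPM at 28 days, with medians of 0.94 over 6 genes and 0.13 over 5. Cldn5, the tight junction protein of brain endothelium, had the highest ratio of the list at 3 days, with 222 against 41.1 CPM (2.45, 1.79 to 3.03). Vtn, vitronectin, had 0 injured-side UMIs against 28.8 CPM, at least 1.3-fold lower against a floor of 3 counts over the injured-side members, and it reached the minimum only through the opposite side. The part of these other cells in the neuronal gene lists was not tested.

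**Figure D4:**
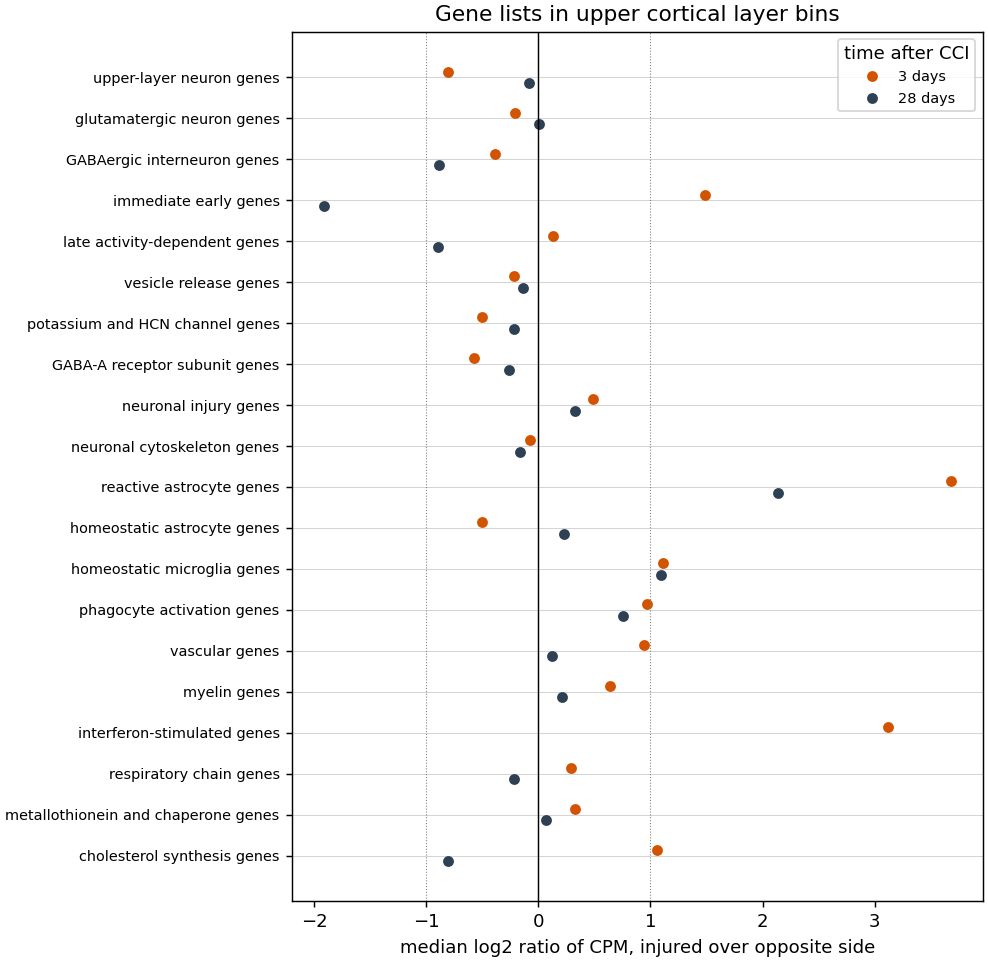
Median log2 ratio of CPM, injured over opposite side, of each gene list with at least 2 measured genes at 3 days (orange) and 28 days (dark blue), the layer 4 and layer 5 lists left out. Dotted lines mark 2-fold. Immediate early genes lie at 1.49 and -1.91 and cholesterol synthesis genes at 1.06 and -0.81. Of the 9 immediate early genes measured at 28 days, 5 reached the minimum only through the opposite side, among them Npas4, whose ratio is the median. The reactive astrocyte and interferon-stimulated medians rest on 2 or 3 genes, some of which reached the minimum only through the injured side.

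Upper-layer genes outside the rule were lower on the injured side at 3 days. Of 11 measured, 5 were at least 2-fold lower and 1 higher (background 9.56% and 8.47%), with a median of -0.80, and Plcxd2 among the 5 reached the minimum only through the opposite side. At 28 days 1 of 10 was lower and 1 higher (background 1.57% and 0.87%), with a median of -0.08. Lamp5 had 133 against 617 CPM at 3 days (-2.18, -2.97 to -1.55) and 262 against 725 CPM at 28 days (-1.47, -1.74 to -1.21). Nectin3, an adhesion molecule, had 44.3 against 251 CPM from 6 injured-side UMIs at 3 days (-2.39, -3.95 to -1.37) and 204 against 279 CPM at 28 days (-0.45). At 3 days the opposite-side bins outside the strip had more of both genes than injured-side members, with 214 CPM of Lamp5 and 81.3 CPM of Nectin3. Wfs1, which encodes wolframin of the endoplasmic reticulum, was the higher gene, with 547 against 144 CPM at 3 days (1.94, 1.55 to 2.29) and 198 against 90.4 CPM at 28 days (1.13, 0.73 to 1.53). Without the members inside the lesion zone the 3 days ratio of Wfs1 was -0.22, from few injured-side UMIs.

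Lamp5 and Wfs1 both differed along the opposite side. On the opposite side at 3 days Lamp5 had 379 to 519 CPM in the 3 most lateral squares and 648 to 856 CPM in the other 7. The 28 days injured-side squares had 237 and 294 CPM. Wfs1 had 226 and 242 CPM in the 2 most lateral squares and 63.9 to 132 CPM in the others, and the 28 days injured-side squares, at 187 and 205 CPM, lay between. The 3 days opposite-side squares nearest to these injured-side squares in distance lay 3.50 and 3.68 mm from their own limit. They had 805 and 707 CPM of Lamp5 and 110 and 132 CPM of Wfs1. At 3 days the single injured-side square, at 0.966 mm, had 112 CPM of Lamp5 and 639 CPM of Wfs1, outside the range of all opposite-side squares.

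**Figure D5:**
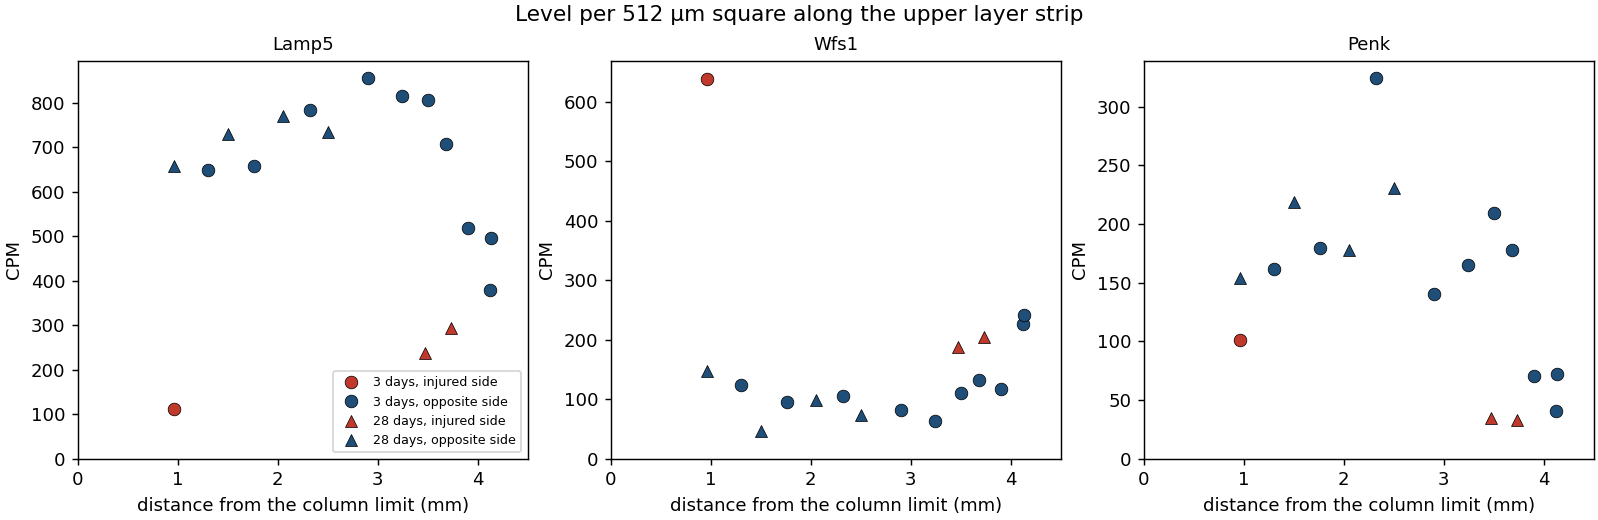
CPM of Lamp5, Wfs1 and Penk in each square of 32 by 32 bins of the strip with at least 50 members, against the mean distance of its members from the column limit in mm. Circles are squares at 3 days and triangles squares at 28 days, red on the injured side and blue on the opposite side. On the opposite side at 3 days Lamp5 and Penk are lowest and Wfs1 highest in the most lateral squares.

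Genes of general neuronal machinery were described by 3 lists. The median over 12 glutamatergic neuron genes was -0.21 at 3 days and 0.003 at 28 days. Vesicle release genes had medians of -0.22 and -0.13 and potassium and HCN channel genes of -0.50 and -0.22. The sums at 3 days gave log2 ratios of -0.39 (-0.49 to -0.30) for the glutamatergic, -0.51 (-0.60 to -0.43) for the vesicle release and -0.27 (-0.44 to -0.11) for the channel genes. The channel median at 3 days was 0.04 without the members inside the lesion zone. Snap25, a core protein of vesicle fusion, had 2460 against 5189 CPM at 3 days (-1.08, -1.24 to -0.92) and 4209 against 6162 CPM at 28 days (-0.55, -0.62 to -0.48). The AMPA receptor subunit gene Gria2 had 480 against 1147 CPM at 3 days (-1.25, -1.63 to -0.90) and 1016 against 1084 CPM at 28 days (-0.09, -0.24 to 0.05). Without the members inside the lesion zone the 3 days ratio of Snap25 was -0.30.

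Inhibitory signalling genes included some of the lowest ratios at 3 days, from 0 or 1 injured-side UMIs each. Gabrd, the delta subunit of extrasynaptic GABA-A receptors, had the lowest ratio of all genes with at least 200 UMIs at 3 days, with 1 injured-side UMI (7.39 CPM) against 145 CPM (-3.71, -9.60 to -1.81), and 136 against 140 CPM at 28 days (-0.03, -0.46 to 0.37). The 3 days ratio of Gabrd was -1.46 without the members inside the lesion zone, from the same 1 UMI over fewer reads. Gabra2 was not detected on the injured side at 3 days and had 60.5 CPM on the opposite side, so it was at least 2.73-fold lower on the injured side against a floor of 3 counts over the injured-side members. Pvalb, a calcium buffer of fast-spiking interneurons, had 1 injured-side UMI against 81.9 CPM at 3 days (-2.89, -8.78 to -0.98) and 69.1 against 207 CPM at 28 days (-1.57, -2.12 to -1.08). Its 3 days ratio without the members inside the zone was -0.63, again from the same 1 UMI over fewer reads. Gabrd, Gabra2 and Pvalb reached the minimum at 3 days only through the opposite side. Of 10 GABA-A receptor subunit genes 3 were at least 2-fold lower at 3 days, Gabrd and Gabra2 among them, and 0 higher (background 9.56% and 8.47%). Without regard to the minimum, all 10 had a lower CPM on the injured side. Over the GABAergic interneuron list the median was -0.38 at 3 days, with 3 of 9 genes at least 2-fold lower and 0 higher (background 9.56% and 8.47%), and of these 3 Pvalb and Adarb2 reached the minimum only through the opposite side. The 3 days median turned to 1.17 without the members inside the zone and to 0.20 against the more lateral opposite-side members. The list summed to 308 CPM in the members inside the zone, 1128 CPM in the 16 outside it and 588 CPM in opposite-side members. At 28 days the median was -0.89, with 3 of 6 lower and 0 higher (background 1.57% and 0.87%). At 3 days Sst, Npy and Gad2 had ratios of 0.81 (-0.19 to 1.58), 0.51 (-0.24 to 1.12) and 0.51 (-0.58 to 1.34), all with intervals that included 0. Against opposite-side members within 2.08 mm of the limit the ratios of Npy and Gad2 were -0.52 and -0.50. Npy and Vip, peptides of other interneurons, had 93.4 against 273 CPM (-1.53, -2.01 to -1.11) and 41.1 against 110 CPM (-1.39, -2.14 to -0.76) at 28 days. Gad1 and Gad2, which make GABA, had ratios of -0.34 (-0.85 to 0.14) and -0.39 (-0.92 to 0.10) there, and Sst, somatostatin, of 0.24 (-0.33 to 0.77). The stretch from 3.2 to 4.0 mm from its own limit on the 3 days opposite side had 94.8 CPM of Npy and 568 CPM of the list. These were near the 88.3 and 541 CPM of the 28 days injured side at such distances from the limit of that section. Pvalb had 119.9 against 69.5 CPM in that comparison.

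Of the listed neuronal injury genes 5 were measured at 3 days, 2 of them at least 2-fold higher and 0 lower (background 8.47% and 9.56%), and 1 of 4 was 2-fold higher at 28 days (background 0.87%). Jun, an AP-1 subunit of the axon injury response, had 303 against 107 CPM at 3 days (1.52, 0.99 to 1.99) and 178 against 87.0 CPM at 28 days (1.03, 0.61 to 1.45). Tubb2b, a tubulin of growing neurons, had 451 against 145 CPM at 3 days (1.65, 1.22 to 2.03) and 151 against 128 CPM at 28 days (0.24, -0.17 to 0.64). The metallothionein gene Mt2 had 628 against 212 CPM (1.58, 1.22 to 1.90) and 374 against 209 CPM (0.84, 0.56 to 1.12). The 3 days ratio of Mt2 was 0.50 without the members inside the lesion zone.

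Beyond the lists, genes with at least 200 UMIs were named by the 10 highest and 10 lowest ratios. At 3 days the highest were Gfap, Igfbp7 (2.46), Igfbp2 (2.25), the T-type calcium channel gene Cacna1g (2.22), Wfs1, mt-Co1 (1.92), Rgs2, mt-Atp6 (1.81), Arc and Stk40 (1.74). Of these, Gfap, Igfbp7 and Rgs2 reached 200 UMIs only through the injured side. Igfbp2 stood at -0.60 without the members inside the lesion zone, from few injured-side UMIs. The mitochondrially encoded mt-Co1 stood at 1596 against 422 CPM at 3 days, and at 28 days the values were 801 and 891 CPM. The respiratory chain genes of the nucleus had a median of 0.29 at 3 days. Against opposite-side members within 2.08 mm of the limit it was -0.17. At 3 days 0 of 11 were past 2-fold, where the background was 8.47% higher and 9.56% lower. The lowest after Gabrd were Car4 (-3.13), Necab3 (-2.90), Pvalb, Mfge8 (-2.85), Etv5 (-2.83), Pde7b (-2.65), Emx1 (-2.60), AI593442 (-2.59) and Robo2 (-2.54). Each of these had 1 to 5 injured-side UMIs, and all but AI593442 reached the minimum of 50 UMIs only through the opposite side. All of them, and Gabrd, reached 200 UMIs only through the opposite side. The ratios of Car4 and Necab3 were -0.87 and -0.64 without the members inside the zone, and that of Stk40 was 0.90. Car4 and Necab3 had 1 injured-side UMI each, counted in that setting over fewer reads. Etv5, a transcription factor, stayed 2-fold lower at 28 days (-1.11, -1.70 to -0.59).

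At 28 days the highest ratio with at least 200 UMIs was that of Gfap. Bhlhe22, a cortical transcription factor, had 254 against 95.5 CPM (1.41, 1.04 to 1.79). Along the 3 days opposite side Bhlhe22 had 47.4 CPM at 0 to 0.8 mm, from 2 UMIs. It had 183, 172, 151 and 177 CPM in the steps of 0.8 mm from 0.8 to 4.0 mm, and 273 CPM at 4.0 to 4.8 mm. The 28 days injured side had 255 CPM at 3.2 to 4.0 mm. Rasl10a, a small GTPase, had 256 against 97.2 CPM (1.40, 1.03 to 1.77). Mapk3, the kinase ERK1, had 458 against 180 CPM (1.35, 1.08 to 1.62) and Elk1, a transcription factor that ERK phosphorylates, 235 against 110 CPM (1.10, 0.73 to 1.47). Pea15a, an ERK-binding protein, had 815 against 393 CPM (1.05, 0.86 to 1.24). Hap1, Wfs1, Sh3bgrl and Camk2d had ratios of 1.27, 1.13, 0.95 and 0.91. Gfap, Bhlhe22, Rasl10a, Wfs1 and Elk1 reached 200 UMIs at 28 days only through the injured side. Rasl10a was also higher at 3 days (1.60, 1.24 to 1.94), whereas Bhlhe22 was lower then (-1.01, -1.98 to -0.27). With TMM scaling the 3 days ratios of Mapk3, Elk1 and Pea15a were -0.996, 0.04 and -0.78. Those of Hap1, Sh3bgrl and Camk2d were 0.03, 0.19 and -1.26.

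The lowest ratios at 28 days were those of Nr4a1, Egr1, Penk, Zbtb16 (-1.96), Slc24a2 (-1.91), Diras2 (-1.74), Pvalb, Npy, Lamp5 and Igfbp4 (-1.42). All but Lamp5 reached 200 UMIs only through the opposite side. Zbtb16, a zinc finger factor, had 52.3 against 207 CPM, and Slc24a2, a sodium, potassium and calcium exchanger, 46.7 against 178 CPM. Igfbp4, a binding protein of insulin-like growth factors, had 91.5 against 247 CPM at 28 days and 539 against 184 CPM (1.56, 1.18 to 1.92) at 3 days. Against opposite-side members within 2.08 mm of the limit its 3 days ratio was 0.65.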

How the data were processed

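Brain sections 10 µm thick from male C57Bl6 mice were measured with the Visium HD assay for fixed tissue, 1 section 3 days and 1 section 28 days after CCI. Per the labels and file headers, the authors made the deposited count tables, holding raw UMI counts for each gene in each 16 µm bin, by Space Ranger 4.0.1 and the mouse probe set 2.0, without normalization. Submitters' processing notes name the build mm10. The tables listed 19070 genes, and bins under 100 UMIs were left out (1.93% at 3 days, 2.15% at 28 days).

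UMIs were summed over members and scaled to CPM, with a pseudocount of 0.5 UMI in ratios. Genes with at least 50 UMIs over both sides were measured. Intervals of ratios are exact conditional binomial and those of shares Clopper-Pearson, at 95%, and cover counting error only. Called means past 2-fold. The lesion zone was found on tiles of 4 by 4 bins in connected patches of at least 25 tiles. Named genes were the 10 highest and 10 lowest ratios with at least 200 UMIs and the genes of 27 lists, some of which are not reported here and were left out of the list values. Clustering, cell typing and doublet removal were not used. Members and lists were chosen with earlier results of these data known. The ratios and intervals were tested on simulated data. Alternatives were block size, percentile, side limit, minimum UMIs, score genes, TMM scaling (a Python implementation), the reference area and the members left out. Promoters came from RefSeq, GRCm38.p6. Scripts ran in Python 3.11.15 with matplotlib 3.10.9, scipy 1.17.1, pandas 2.3.3 and numpy 2.4.6.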

Additional observations from a re-analysis of the deposited data

Results flagged for a closer look

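Gene lists and genes whose injured-side ratio had opposite signs in the sections were looked at again. With 1 section per time point the difference between time points was not tested, and the injured-side members of the sections lay at different positions along the cortex.

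Immediate early genes had a median log2 ratio of 1.49 at 3 days and -1.91 at 28 days, with Npas4 at 3.65 and -1.91, Fos at 2.90 and -2.31, Arc at 1.76 and -2.11 and Egr4 at 1.35 and -1.61. These named genes reached the minimum at 28 days only through the opposite side, whereas Nr4a1 and Egr1 did not depend on it. Later activity-dependent genes had medians of 0.13 (-0.02 with TMM scaling) and -0.90, with Nptx2 at 1.76 and -1.81. Nptx2 at 28 days, and Lpl below at 3 days, also reached the minimum only through the opposite side. Cholesterol synthesis genes had medians of 1.06 and -0.81, with Fdft1 at 1.06 and -1.02. Igfbp4 stood at 1.56 and -1.42. The opposite order was found for homeostatic astrocyte genes, with medians of -0.50 and 0.23, for Bhlhe22 at -1.01 and 1.41 and for Lpl at -2.36 and 1.23.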

How the results depend on the processing

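No paired analysis was possible because each time point had 1 section. Under 17 alternatives per section, of which leaving out isolated members and using the more lateral opposite-side members were chosen after seeing the data, immediate early genes kept their direction, with medians from 0.82 to 1.66 at 3 days and from -2.50 to -1.15 at 28 days.

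The cause of the following shifts was not tested. The share of injured-side bins that were members moved to 2.65% and 0.857% at 3 days with the 94th and 98th percentile, and at 28 days to 3.33% and 1.49% with these, 3.05% with blocks of 3 by 3 bins, 3.19% without Cux2 and 3.11% without Rasgrf2 in the score. Genes past 2-fold higher and lower at 3 days were 4581 and 1195 with no minimum per gene. With a minimum of 200 UMIs they were 95 and 279. They were 102 and 174 against the opposite side within 2.08 mm of the limit, and 373 and 501 against its more lateral members. Without the members inside the lesion zone, which left 16 on the injured side, 1593 were higher and 1100 lower. At 28 days they were 1575 and 966 with no minimum and 8 and 20 with a minimum of 200 UMIs.

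The median of reactive astrocyte genes at 3 days moved to 4.54 and 4.16 with blocks of 3 and 7 bins. It moved to 4.103 at the 98th percentile, 4.08 without Rasgrf2 and 4.80 with no minimum per gene. Without the members inside the zone it was 4.51, and against the opposite side within 2.08 mm of the limit 4.43. At 28 days it moved to 3.47 against the more lateral members. The upper-layer median at 3 days moved to -1.62 at the 98th percentile.

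Of medians and genes past 2-fold, those reversed at 3 days were layer 6 genes (0.16 with blocks of 3 bins, 0.26 with no minimum, 0.40 without the members in the zone), layer 5 genes (0.60 with no minimum, 0.19 without the members in the zone), hippocampal genes (-1.002 at the 94th percentile), and meningeal fibroblast and thalamic genes (1.97 and 0.76 with no minimum). At the base settings the layer 6 (-1.12), hippocampal (1.19), meningeal fibroblast (-1.525) and thalamic medians (-2.49) rested on 1 measured gene each. The layer 5 median (-1.695) rested on 2. Without the members in the zone Igfbp2, Sqle, Stard8 and Wfs1 reversed to -0.60, -0.59, 0.39 and -0.22. These values rest on few injured-side UMIs, and that of Sqle on the pseudocount alone. Aldoc, Bdnf, Bhlhe22, Igfbp4, Nptx1 and Zbtb16 no longer passed 2-fold, at -0.84, -0.44, -0.70, 0.71, 0.65 and -0.86. Values under 2-fold changed sign too. At 3 days these included, without the members in the zone, GABAergic interneuron genes (1.17) and potassium and HCN channel genes (0.04). Neuronal cytoskeleton genes (0.50) and Dusp1 (1.42) did so under the same setting. Respiratory chain genes did so against the opposite side within 2.08 mm of the limit (-0.17). At 28 days the values that changed sign included upper-layer genes (0.13 at the 98th percentile) and vascular genes (-0.35 without Rasgrf2).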
